A study of Mus musculus with 24 samples.

Results

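The keratin genes Krt7, Krt8, Krt17, Krt18, Krt19, Krt20, Krt23 and Krt80 were taken by symbol from the gene tables of a mouse liver RNA-seq study, 8 of 49568 gene rows. In the homeostasis experiment, 3 littermates (mice A, E and F, 2 male and 1 female) at 12 weeks of age, on a C57BL/6 background and all heterozygous for the allele B6.129S4-Pdgfratm11(EGFP)Sor/J, each gave 4 sorted fractions. These were EpCAM+ ductal cells (DCs) and 3 stromal fractions, namely PDGFRα+SCA1-, PDGFRα+SCA1+ and, without GFP, PDGFRα-SCA1+, where PDGFRα was read from nuclear GFP (Pdgfra-H2BGFP) and all fractions were gated as negative for CD31, CD45 and CD11b. The methods give an EpCAM- gate for the SCA1+ mesenchyme. In the transwell experiment, wild type C57BL/6 mice aged 8 to 12 weeks gave 6 groups of 2 libraries. DCs and SCA1+ mesenchymal cells (Msc, without a PDGFRα gate) were taken freshly sorted (day 0) and after culture (15 days). DCs formed organoids either alone in the growth-factor rich expansion medium (EM) or above a Msc layer in mesenchymal medium (MM), and Msc were grown alone or below the organoids. Medium and Msc therefore changed together between EM organoids and co-culture organoids, and their effects cannot be told apart.

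Keratins are the intermediate filament proteins of epithelia. A filament is built from pairs of an acidic type I and a basic type II keratin, so the members fall into type I (Krt17, Krt18, Krt19, Krt20 and Krt23) and type II (Krt7, Krt8 and Krt80). Krt8 and Krt18 form the basic pair of simple epithelia, and Krt7 and Krt19 accompany them in bile ducts, where Krt19 and Krt7 are used as markers of cholangiocytes. Krt20 is known from differentiated cells of the gut and urothelium, and Krt17 from basal and injured epithelia.

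The type I members lie in 1 cluster and the type II members in another, with Krt18 as the exception. In GRCm38 (GENCODE M21), Krt20 (chr11:99428403-99438150), Krt23 (chr11:99477974-99493137), Krt19 (chr11:100140810-100148665) and Krt17 (chr11:100256217-100261029) are on the minus strand of chromosome 11. Krt80 (chr15:101347444-101370162, minus strand), Krt7 (chr15:101411043-101430313, plus strand), Krt8 (chr15:101996698-102004482, minus strand) and Krt18 (chr15:102028180-102032027, plus strand) are on chromosome 15. Krt8 and Krt18 are neighbours that point away from each other, 23698 bases apart. The longest coding transcripts encode 403 (Krt19) to 490 (Krt8) residues in 6 to 9 exons. Of the 50-base stretches of the Krt8 transcript, 29.7% recur in the pseudogene Krt8-ps or in Gm36026, so Krt8 levels carry that uncertainty. For Krt17, 60 of 1502 such stretches recur in Krt14, Krt15, Krt16 or Krt42, whereas Krt19, Krt20 and Krt23 share none.

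RefSeq promoter windows (GRCm38.p6, 250 bases before to 50 after the start) matched 5 of the 8 members. Shown here are those of Krt20 and Krt7, which rose in co-culture, and of the pair Krt8 and Krt18, which moved together. Capitals mark, on both strands, the TATA box letters TATAAA, the GC box GGGCGG, the AP-1 letters TGANTCA and the TEAD letters GGAATG.
Krt20, chr11:99438104-99438403, minus strand: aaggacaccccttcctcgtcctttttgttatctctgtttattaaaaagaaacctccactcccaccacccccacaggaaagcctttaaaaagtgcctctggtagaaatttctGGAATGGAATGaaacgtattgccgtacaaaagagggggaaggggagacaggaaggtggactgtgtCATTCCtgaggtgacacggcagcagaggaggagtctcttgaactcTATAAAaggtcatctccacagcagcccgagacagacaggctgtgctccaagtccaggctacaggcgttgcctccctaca
Krt7, chr15:101412153-101412452, plus strand: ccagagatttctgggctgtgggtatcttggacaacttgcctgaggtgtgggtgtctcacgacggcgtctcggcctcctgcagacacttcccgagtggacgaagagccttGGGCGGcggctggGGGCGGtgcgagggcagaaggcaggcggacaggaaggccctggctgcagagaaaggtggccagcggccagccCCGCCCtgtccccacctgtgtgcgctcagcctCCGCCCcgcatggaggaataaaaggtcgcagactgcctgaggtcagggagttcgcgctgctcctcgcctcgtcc
Krt8, chr15:102004293-102004592, minus strand: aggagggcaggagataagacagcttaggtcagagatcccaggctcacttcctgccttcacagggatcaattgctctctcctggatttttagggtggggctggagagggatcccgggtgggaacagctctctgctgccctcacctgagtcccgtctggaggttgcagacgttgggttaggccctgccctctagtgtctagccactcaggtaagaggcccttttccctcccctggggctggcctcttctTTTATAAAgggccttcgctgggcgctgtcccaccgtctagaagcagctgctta
Krt18, chr15:102027966-102028265, plus strand: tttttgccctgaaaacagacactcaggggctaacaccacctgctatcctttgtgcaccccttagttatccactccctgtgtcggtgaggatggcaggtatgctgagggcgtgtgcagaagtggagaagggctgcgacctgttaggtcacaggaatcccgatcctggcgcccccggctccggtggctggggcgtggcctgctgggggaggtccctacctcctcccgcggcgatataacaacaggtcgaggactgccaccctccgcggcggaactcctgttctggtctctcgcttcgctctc
The Krt20 window holds TATAAA at -29 from the start and GGAATG at -139, -134 and -74, the first pair sharing 1 base. GGAATG was found in 14.7% of the 32851 RefSeq windows, and 1.36% hold it at least 2 times. Krt7 holds GGGCGG at 4 positions, and 35.7% of all windows hold it at least once. TATAAA, present in 13.6% of all windows, was matched in Krt8 on both strands at the RefSeq start itself, which lies 140 bases downstream of the GENCODE start. TGANTCA, found in 7.81% of all windows, was matched in none of the 5. The RefSeq start of Krt7 lies 1360 bases from the GENCODE start, so its window is that of a downstream start. These matches describe the letters and say nothing of binding.

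Libraries held 19.6 to 25.7 M reads in homeostasis and 19.3 to 28.1 M in the transwell experiment, recovered from the steps of the values. A single read was therefore a small fraction of 1 unit, and 3 reads, the floor used here, were worth 0.0475 to 0.399 units for the members. The ductal and mesenchymal marker lists matched the labels of the DCs and of the PDGFRα+ fractions. The PDGFRα-SCA1+ fraction held the endothelial markers Kdr, Pecam1, Cdh5 and Flt4 at a summed level of 1641 to 1758 and the mesenchymal list at 273 to 480, against 25517 to 28175 in PDGFRα+SCA1+ cells. Pecam1, which encodes CD31, stood at 796 ± 116 in that fraction although it was gated as CD31-, against 1.31 ± 1.54 in DCs. The hepatocyte list (Alb, Ttr, Apoa1, Serpina1a, Cyp3a11 and Fgb) stood at 2044 to 6540 in PDGFRα-SCA1+ cells and the erythroid list at 2663 to 6258. Neither was particular to them, as DCs held the hepatocyte list at 5785 to 6913 and the erythroid list at 389 to 1346. PDGFRα+SCA1- cells also held the smooth muscle list at 1236 to 2769.

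In freshly sorted homeostatic DCs, all 8 keratins were detected, over a range of 3 orders of magnitude, and Krt18 ranked as the third most abundant gene of the fraction. On the TPM scale, Krt18 stood at 16440 ± 1268 (SD, n = 3), Krt8 at 13186 ± 1099 and Krt19 at 1954 ± 197. Krt23 followed at 1051 ± 161 TPM, Krt17 at 456 ± 177, Krt7 at 149 ± 31.1, Krt80 at 57.7 ± 9.36 and Krt20 at 16.1 ± 6.69. No neighbours in this order overlapped between mice. The partners Krt8 and Krt18 were present at a ratio of 0.802 ± 0.0112 in TPM. All 8 together made up 3.33% ± 0.25 of the DC libraries. Krt17 stood at 513, 599 and 258 TPM in mice A, E and F, lowest in mouse F, whereas Krt20 was highest in mouse F.

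The first question was how the ductal fraction stood against each stromal fraction. The values here are those deposited by the authors, whose scale differed from TPM by factors of 0.722 to 1.39, and the test was limma on log2(value + 1). Krt18 held deposited values of 16837, 23054 and 19192 in the DCs of mice A, E and F. In PDGFRα+SCA1+ cells of the same mice it held 6.57, 19.1 and 29.3, in PDGFRα+SCA1- cells 14.1, 54.9 and 77.4, and in PDGFRα-SCA1+ cells 34.9, 464 and 115. Its DC level thus lay far above every stromal library, by a log2 fold change of 10.20 ± 0.84 (SE) against PDGFRα+SCA1+ cells (adjusted p = 3.3e-06). Krt8 behaved alike, at 12267, 13553 and 13690 in DCs and at 6.86, 12.6 and 10.1 in PDGFRα+SCA1+ cells (log2 fold change 10.28 ± 0.999, adjusted p = 1.15e-05).

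All 8 keratins were higher in DCs than in PDGFRα+SCA1+ cells, against 14.0% of all 17028 genes tested. The same count of 8 was reached against PDGFRα+SCA1- cells (18.9% of all genes higher) and against PDGFRα-SCA1+ cells (11.3%). The median log2 fold changes of the members were 9.07, 8.26 and 6.64 in that order, beside 0.28, 0.47 and 0.04 over all genes tested. Krt20 had no read in any stromal library and passed the filter on low values through the DC libraries alone. Krt7 and Krt17 also needed the DC libraries to pass it, as too few stromal libraries reached a value of 1. The place of Krt7, Krt17 and Krt20 in each count of 8 and in these medians is therefore not read as support. When a library was left out, each of these counts fell to 7 at the lowest. In bulk libraries, fewer cells of a type and less RNA per cell cannot be told apart. For Krt80 against PDGFRα-SCA1+ cells the log2 fold change was 4.51 ± 0.88 (adjusted p = 0.0024).

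Krt20 had no read in any of the 9 stromal libraries and deposited values of 12.4, 13.3 and 21.5 in the DCs of mice A, E and F. Set against the floor of 3 reads per library, its DC mean of 15.8 was at least 66.2-fold higher than in any stromal fraction. Krt7 had no read in the 3 PDGFRα+SCA1+ libraries and 141, 166 and 164 in DCs, which is at least 2311-fold higher. Krt80 had none in the PDGFRα+SCA1- libraries and 75.9, 65.9 and 63.2 in DCs, at least 434-fold higher. Of these 3, only Krt20 was without a read in every stromal library. Krt7 had 289 and 41 reads in the PDGFRα-SCA1+ libraries of mice E and F, and Krt80 had 250 reads in that of mouse E.

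**Figure D1:**
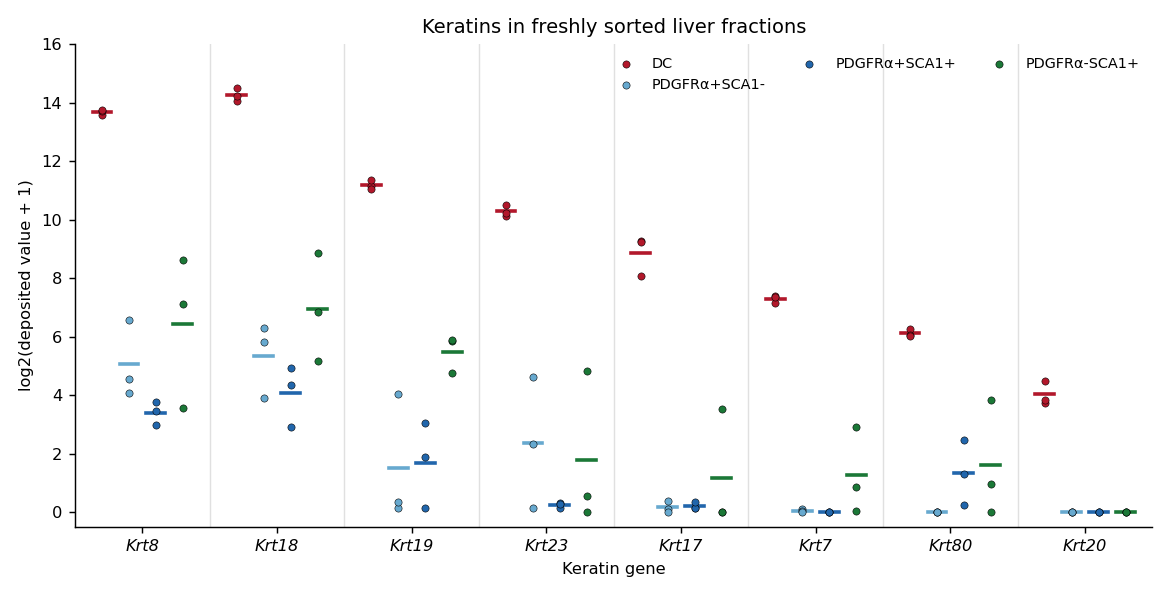
Keratins in the 4 homeostasis fractions. The y axis gives log2(deposited value + 1) and the x axis the 8 genes in the order of Krt8, Krt18, Krt19, Krt23, Krt17, Krt7, Krt80 and Krt20. Each point is 1 mouse (n = 3) and each bar the group mean on that log scale. DCs (red) lie above every stromal point for each gene, and Krt20 is at 0 in all 9 stromal libraries.

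Within the stroma, the PDGFRα+ fractions were compared by SCA1. By limma, 0 of 8 passed the threshold between PDGFRα+SCA1+ and PDGFRα+SCA1- cells, and 0 had an unadjusted p under 0.05, where 0.587% of all genes were called. For Krt8 the deposited values were 6.86, 12.6 and 10.1 in PDGFRα+SCA1+ cells and 15.9, 22.2 and 94.8 in PDGFRα+SCA1- cells, which did not overlap (log2 fold change -1.66 ± 0.999, adjusted p = 0.573). Krt23 ranged from 0.109 to 23.8 in PDGFRα+SCA1- cells and lay under the floor in every PDGFRα+SCA1+ library. Krt80 had no read in the PDGFRα+SCA1- libraries and 4, 34 and 86 reads in the PDGFRα+SCA1+ libraries of mice A, E and F, again without overlap (log2 fold change 1.34 ± 0.88, adjusted p = 0.619).

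PDGFRα-SCA1+ cells, in contrast, held more Krt18 and Krt19 than PDGFRα+SCA1+ cells. In the order of mice A, E and F, PDGFRα-SCA1+ cells held Krt19 at 56.1, 58.1 and 25.8, against 7.23, 0.0919 and 2.69 for PDGFRα+SCA1+ cells (log2 fold change 3.81 ± 0.94, adjusted p = 0.0135). Krt18 showed a log2 fold change of 2.90 ± 0.84 (adjusted p = 0.0304), again without overlap. Krt8 missed the threshold (log2 fold change 3.03 ± 0.999, adjusted p = 0.0539) and passed it with the mouse as a replicate block (adjusted p = 0.0302), which raised the count from 2 to 3 of 8. Of all genes, 10.9% were higher in this comparison. The median log2 fold change of the members was 1.41, beside 0.25 over all genes. The Krt18 call was lost without the PDGFRα+SCA1+ library of mouse A (adjusted p = 0.125) or E (0.0653) and without the PDGFRα-SCA1+ library of mouse E (0.11) or F (0.0674). The Krt19 call was lost without the PDGFRα+SCA1+ library of mouse E (0.0625).

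Ductal and mesothelial markers were set beside these stromal keratins, library by library, and moved with them in some libraries only. In the PDGFRα+SCA1- library of mouse F, Krt8 stood at 0.72% of its DC mean and Epcam, Spp1 and Cldn7 at 0.0268%, 0.242% and 0.518%. In that of mouse E, Krt8, Krt18 and Krt23 stood at 0.169%, 0.279% and 1.90%. Epcam, Spp1 and Cldn7 stood at 0.386%, 0.493% and 0.0133% there. Krt7 and Krt19 were at 0.0124% and 0.00431%, and Krt17, Krt20 and Krt80 at 0. The median was thus 0.272% over the 8 ductal markers and 0.00838% over the 8 keratins, the latter drawn down by the keratins at or near 0. In the PDGFRα-SCA1+ library of mouse E, Krt8, Krt18 and Krt7 stood at 2.97%, 2.36% and 4.17% of their DC means, and the ductal markers Epcam, Spp1 and Cldn7 at 4.88%, 5.89% and 3.28%. Krt80 stood apart there at 19.2% of its DC mean, and Krt17 and Krt20 were at 0. In that of mouse A, Epcam, Spp1 and Cldn7 were at 0.0201%, 0.0333% and 0.0158%, and Krt8 at 0.0821%, but Krt19 was at 2.41%. In the library of mouse A, 4 genes of the mesothelial list were read that were at 0 in the PDGFRα-SCA1+ libraries of mice E and F. Upk3b had a value of 48.3, Upk1b 41.1, Lrrn4 21.2 and Msln 13.8. Mouse A also held the highest Krt19 of both PDGFRα+ fractions, 15.4 (PDGFRα+SCA1-) and 7.23 (PDGFRα+SCA1+), with Upk1b at 59.5 and 7.13 there and at 0 in the other mice. Upk3b and Lrrn4 were likewise highest in mouse A in both fractions, but the rest of the list was mixed. Wt1 was highest in mouse A in PDGFRα+SCA1- cells (66.8) and in mouse E in PDGFRα+SCA1+ cells (16.2, beside 11.9 in mouse A). Gpm6a was highest in mouse F in both (13.4 and 3.86), and Msln was at 0 in all PDGFRα+SCA1+ libraries. Across the whole ductal list, 7 of 8 markers reached a mean of at least 1 in PDGFRα-SCA1+ cells, at a summed level of 24.3 to 3809, against 56021 to 75872 in DCs. The summed mesothelial list ranged from 293 to 544 in PDGFRα-SCA1+ cells, from 40.2 to 207 in PDGFRα+SCA1- cells and from 10.9 to 34.2 in PDGFRα+SCA1+ cells, beside 136 to 204 in DCs. Gpm6a alone accounted for 293 to 418 of it in PDGFRα-SCA1+ cells. Hepatocytes also express Krt8 and Krt18, and in the same comparison 4 of 6 hepatocyte markers were higher without PDGFRα, at sums of 2044 to 6540 against 212 to 1696. The part of ductal, mesothelial or hepatocyte RNA in the stromal keratin levels was not tested.

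**Figure D2:**
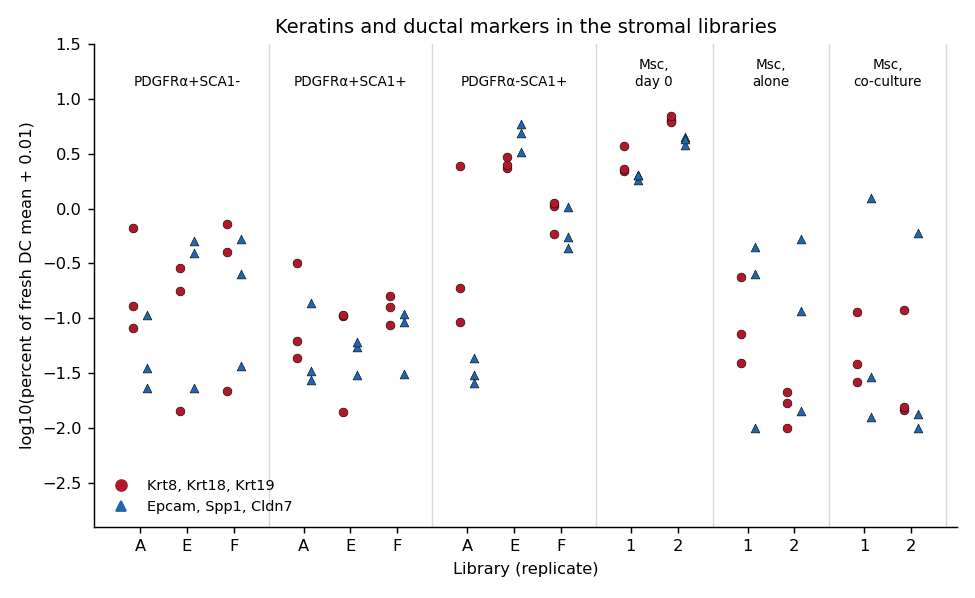
Keratins beside ductal markers in each stromal library. The y axis gives log10 of the percentage of the mean in fresh DCs of the same experiment, plus 0.01, and the x axis the library by fraction and replicate. Circles are Krt8, Krt18 and Krt19 and triangles Epcam, Spp1 and Cldn7. Both sets are high in the PDGFRα-SCA1+ library of mouse E and in the day 0 Msc, and in the PDGFRα-SCA1+ library of mouse A Krt19 stands alone at 2.41%.

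Freshly sorted DCs of the transwell experiment gave a second, independent sort of wild type mice. In libraries 1 and 2, Krt18 stood at 20973 and 20693 TPM, Krt8 at 17096 and 16186 and Krt19 at 2731 and 2612. Krt23 stood at 1700 and 1511 TPM, Krt17 at 761 and 417, Krt7 at 153 and 143 and Krt80 at 64.3 and 70.8. The order of these 7 genes was that of the homeostatic DCs, and the ratio of Krt8 to Krt18 was 0.799 ± 0.0233 (SD, n = 2). Krt20 was the exception, at 2.41 and 0.581 TPM (40 and 7 reads), where the homeostatic DCs had 16.1 ± 6.69 TPM. The experiments differ in genotype, age range and normalization, so this last difference was not tested.

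Day 0 Msc were not free of keratins. Krt18 was at 474 and 1283 TPM in the 2 libraries, Krt8 at 361 and 1067 and Krt19 at 99.2 and 186. Library 2 was the higher of the pair for these 3 genes and for Krt7, Krt17, Krt23 and Krt80, as it was for Epcam (53.8 and 113 TPM) and Spp1 (890 and 1979 TPM). The medians over the 8 keratins were 1.57% and 5.24% of the DC mean, and those over the 8 ductal markers 1.999% and 4.38%. Krt8 and Krt18 stood in a ratio of 0.797 ± 0.0497. The hepatocyte list was higher still, at 16468 to 21218 TPM against 4206 to 5295 in day 0 DCs, and its part in these Krt8 and Krt18 levels was not tested. DCs exceeded these Msc in 7 of 8 keratins (24.7% of all 18136 genes higher), all but Krt20, with a median log2 fold change of 4.74 beside 0.07 over all genes. For Krt18 the log2 fold change was 4.74 ± 0.70 (adjusted p = 0.000411).

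Most keratins were lower in EM organoids than in day 0 DCs. Krt8 fell from 17096 and 16186 to 2550 and 2405 TPM, 6.72-fold lower (log2 fold change -2.75 ± 0.56, adjusted p = 0.00305). Krt18 fell from 20973 and 20693 to 4903 and 4713 TPM, 4.33-fold lower (log2 fold change -2.12 ± 0.70, adjusted p = 0.0335). Krt18 was the less stable of the pair. Its call was lost with quantile normalization (log2 fold change -1.19, adjusted p = 0.193), without a filter (0.0698), with a pseudocount of 0.1 (0.0819) and without the mean-variance trend (0.0519). Krt17 stood at 10.4 and 2.22 TPM in EM organoids, 93.4-fold lower than in day 0 DCs (log2 fold change -6.54 ± 0.87, adjusted p = 0.000242). Krt23 stood at 42.6 and 27.1 TPM, 46.1-fold lower (log2 fold change -5.52 ± 0.52, adjusted p = 2.89e-05). Krt80, a type II keratin of differentiating epithelia, stood at 4.35 and 1.32 TPM (log2 fold change -4.28 ± 1.01, adjusted p = 0.00682). Together 5 of 8 members were lower, against 17.2% of all genes, and the median log2 fold change was -2.43 beside 0.12 over all genes.

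Krt7, Krt19 and Krt20 did not pass the test in this comparison. Krt7 was at 306 and 269 TPM in EM organoids, above both day 0 DC libraries at 153 and 143 (log2 fold change 0.95 ± 0.53, adjusted p = 0.185). Krt19 was at 1791 and 1580 TPM, below 2731 and 2612 in day 0 DCs (log2 fold change -0.67 ± 0.69, adjusted p = 0.481). Krt20 was at 6.04 and 0.569 TPM, overlapping the DCs. The spread in this fit was pooled over all 6 groups, including Msc libraries in which keratins were low and uneven. In a fit of the 6 ductal libraries alone, chosen after these values were seen, Krt7 (adjusted p = 0.00251) and Krt19 (adjusted p = 0.015) also passed and the count rose from 5 to 7. Without EM library 2 the count was 3, and the Krt18 call was lost on leaving out any 1 of the 4 libraries compared.

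Organoids grown with Msc had another keratin profile. Krt20 rose from 2.41 and 0.581 TPM in day 0 DCs to 1596 and 1324 in co-culture organoids, backed by 27517 and 19236 reads (log2 fold change 9.29 ± 0.71, adjusted p = 8.72e-06). Krt19 rose from 2731 and 2612 to 15435 and 14387 TPM, 5.58-fold (log2 fold change 2.48 ± 0.69, adjusted p = 0.0162). Krt7 rose from 153 and 143 to 1925 and 1853 TPM, 12.7-fold (log2 fold change 3.66 ± 0.53, adjusted p = 0.000466). These 3 were the members higher than in fresh DCs, where 23.2% of all genes were higher. Lower were Krt17, at 12.2 and 13.9 TPM (log2 fold change -5.33 ± 0.87, adjusted p = 0.000915), and Krt23, at 146 and 95.2 TPM (log2 fold change -3.75 ± 0.52, adjusted p = 0.000344), beside 19.1% of all genes. The log2 fold changes of Krt8 (-0.94 ± 0.56, adjusted p = 0.215), Krt18 (-0.97 ± 0.70, adjusted p = 0.311) and Krt80 (-0.84 ± 1.01, adjusted p = 0.56) did not pass. The members' median log2 fold change was -0.89, beside 0.00 over all genes. The Krt19 call was lost on leaving out any 1 of the 4 libraries (adjusted p = 0.0619 to 0.0726).

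Set against EM organoids directly, both co-culture libraries lay above both EM libraries for all 8 members, a separation that 17.8% of all genes showed in this direction. Past the threshold were Krt20, Krt19 and Krt7, 3 of 8 against 5.73% of all genes. Krt20 stood at 6.04 and 0.569 TPM in EM and at 1596 and 1324 in co-culture, 442-fold higher by the means (log2 fold change 8.77 ± 0.71, adjusted p = 6.7e-05). Krt19 was 8.85-fold higher (log2 fold change 3.15 ± 0.69, adjusted p = 0.0158) and Krt7 6.57-fold higher (log2 fold change 2.71 ± 0.53, adjusted p = 0.00932). Krt80 at 34.5 and 40.0 TPM in co-culture (adjusted p = 0.0544), Krt23 (0.0549) and Krt8 at 9010 and 8323 TPM (0.0664) just missed, and Krt18 at 10814 and 10522 TPM (0.361) and Krt17 (0.454) lay further away. The members' median log2 fold change was 2.26, beside -0.13 over all genes. Both contrasts with EM organoids and both with day 0 DCs share libraries and are no independent evidence for each other.

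This last count moved with the settings more than any other. The Krt20 call held on leaving out any 1 library and missed the threshold when the 4 organoid libraries were fitted alone (adjusted p = 0.053), whereas Krt7 (adjusted p = 0.0508 to 0.0669) and Krt19 (0.0737 to 0.0919) lost theirs on leaving out any of the 4 organoid libraries, for a count of 1. Without either day 0 Msc library the count was 6, and in the fit of the 6 ductal libraries alone it was 7, all but Krt17 (adjusted p = 0.362).

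**Figure D3:**
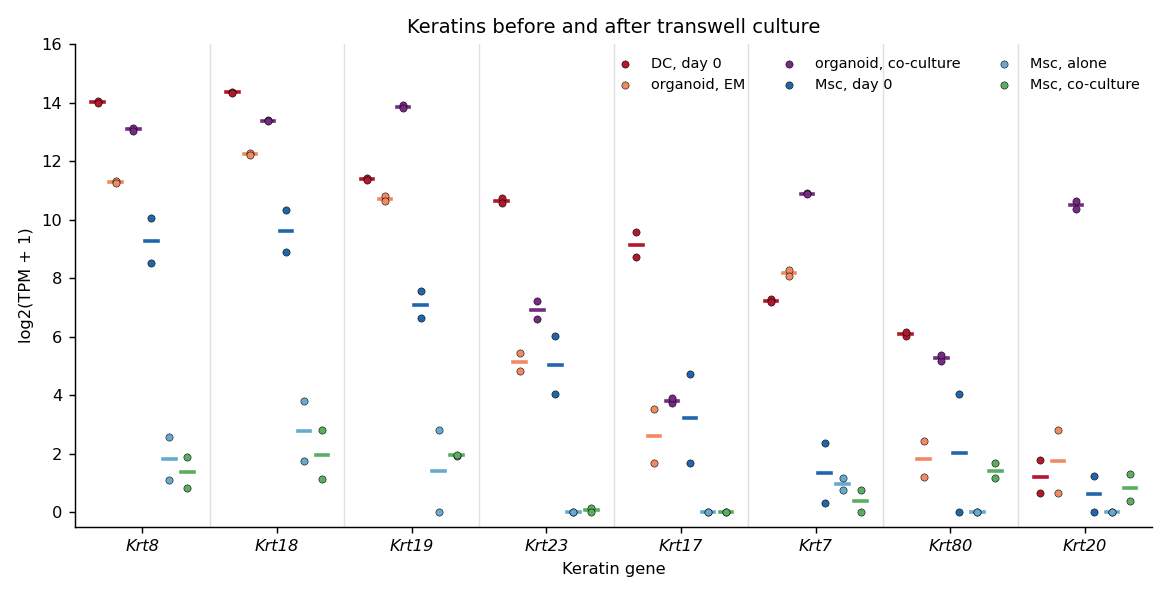
Keratins before and after transwell culture. The y axis gives log2(TPM + 1) and the x axis the 8 genes. Each point is 1 library (n = 2 per group) and each bar the group mean on that scale. Krt20 is at 1596 and 1324 TPM in co-culture organoids and at most 6.04 TPM in any other library, and no keratin exceeds 12.8 TPM in cultured Msc.

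**Figure D4:**
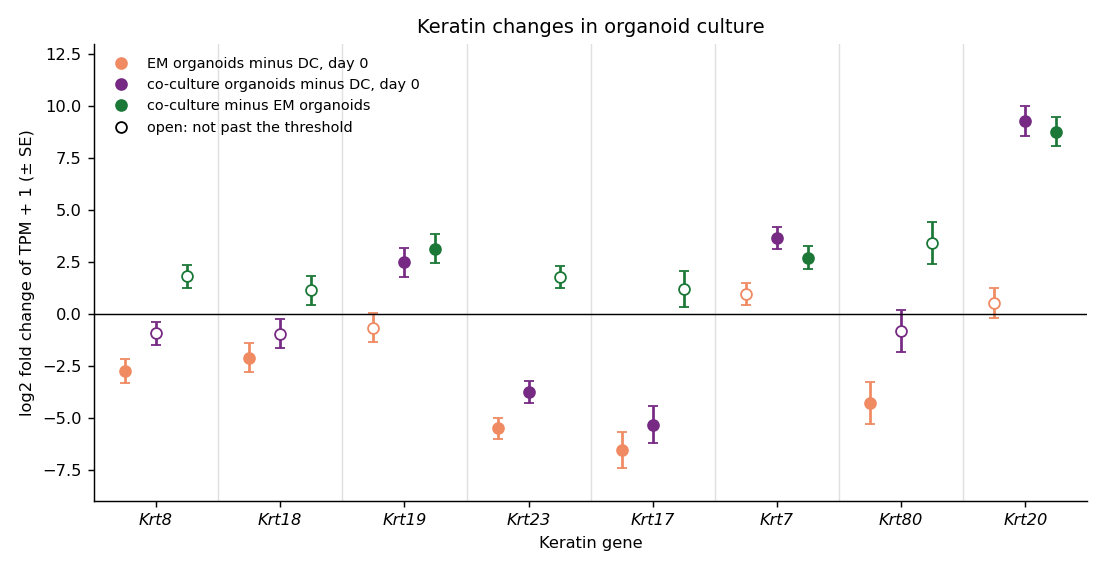
Keratin changes in organoid culture. The y axis gives the log2 fold change of TPM + 1 with its SE from the fit of 12 libraries, and the x axis the 8 genes. Filled points passed an adjusted p of 0.05 and open points did not. Krt17 and Krt23 lie below 0 in both cultures against fresh DCs, while Krt7, Krt19 and Krt20 lie above 0 in co-culture.

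The culture conditions thus differed in how the keratin pool was made up. All 8 members together took 4.26% ± 0.131 of day 0 DC libraries (SD, n = 2), 0.931% ± 0.0434 of EM organoids and 3.78% ± 0.171 of co-culture organoids. Krt18 led in day 0 DCs with 49.0% ± 1.04 of the summed keratin TPM and in EM organoids with 51.7% ± 0.971. In co-culture organoids Krt19 led, with 39.5% ± 0.178 beside 28.3% ± 0.731 for Krt18. The ratio of Krt19 to Krt18 was 0.128 ± 0.00285 in day 0 DCs, 0.350 ± 0.0213 in EM organoids and 1.40 ± 0.0424 in co-culture organoids. Krt20 supplied 3.86% ± 0.334 of the co-culture pool and 0.0346% ± 0.0399 of the EM pool. The ratio of Krt8 to Krt18 was 0.799 ± 0.0233 in day 0 DCs and 0.812 ± 0.0298 in co-culture, but 0.515 ± 0.00695 in EM. Type I keratins outweighed type II keratins 1.53-fold ± 0.0193 in day 0 DCs, 2.36-fold ± 0.00143 in EM organoids and 2.57-fold ± 0.0181 in co-culture organoids. With 2 libraries per group these spreads are themselves rough.

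**Figure D5:**
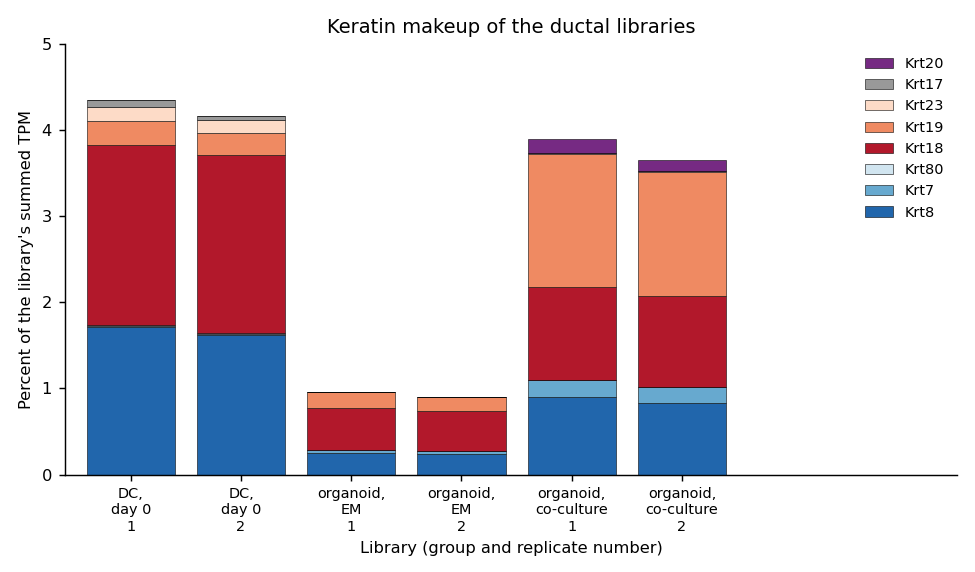
Keratin makeup of the ductal libraries of the transwell experiment. The y axis gives the percentage of the summed TPM of a library, the x axis the library, and the stacked colours the 8 keratins. The EM organoids reach 0.931% on average, and Krt19 is the thickest band in co-culture organoids.

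Keratins outside the 8 members were also read in co-culture organoids, and the mean of Krt4, 153 TPM, lay above those of Krt23, Krt80 and Krt17 there. Of 46 further Krt symbols, 7 passed the filter on low values, several of them only because co-culture organoids held them. Their count and the adjusted p-values given here are therefore not read as support. Krt4, the type II keratin of non-cornified stratified epithelia, stood at 201 and 104 TPM in co-culture, at 0.49 and 0 in day 0 DCs and at 0 in EM organoids (adjusted p = 4.57e-06 against EM). Its partner Krt13 stood at 43.3 and 4.52 TPM and Krt6a at 36.5 and 9.06 TPM, both at 0 in the day 0 DC and EM libraries. Krt16 stood at 3.29 and 5.93 TPM in co-culture (adjusted p = 0.00156 against EM). In all, 6 of the 7 were higher than in EM organoids (5.73% of all genes higher) and 6 of the 7 higher than in day 0 DCs (23.2%). The median log2 fold changes were 2.45 and 2.01, beside -0.13 and 0.00 over all genes. Like the counts, these medians follow in part from the filter. The sum over all 46 was 141 to 296 TPM in co-culture, 8.27 to 10.9 in EM organoids and 6.34 to 9.21 in day 0 DCs. In homeostatic DCs the same sum was 8.01 to 8.12.

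The mesothelial list was also high in co-culture organoids, at a sum of 3882 to 4504 TPM against 300.1 to 327 in EM organoids. Msln made up 4500 and 3879 TPM of it, while Upk1b, Wt1 and Lrrn4 were at 0 in both libraries and Upk3b at 2.25 and 0.939 TPM. The summed mesenchymal list was 2.20 to 14.8 TPM in co-culture organoids, against 28554 to 29626 in the Msc of the same culture. The ductal list stood at 22717 to 23982 TPM, against 46771 to 47710 in EM organoids.

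Desmosomal and linker genes, which anchor keratin filaments at cell borders, were mostly higher in fresh DCs than in stroma. Against PDGFRα+SCA1+ cells, 11 of 13 tested were higher in homeostatic DCs and 0 lower (median log2 fold change 4.27, beside 0.28 over all genes, 14.0% of which were higher). Against PDGFRα+SCA1- cells 10 were higher and 1, Dst, lower (18.9% of all genes higher), and against PDGFRα-SCA1+ cells 8 were higher and 0 lower (11.3%). Among them were desmoglein Dsg2 (449 ± 88.0 against 0.355 ± 0.578) and the p53 target Perp (282 ± 29.1 against 0). Against day 0 DCs, EM organoids held 5 of 13 lower and 0 higher (median -0.58 beside 0.12, with 17.2% of all genes lower), including Dst (log2 fold change -2.62, adjusted p = 2.59e-05) and Dsg2 (-2.11, adjusted p = 0.000399). Co-culture organoids held 3 of 13 higher and 4 lower than day 0 DCs (median 0.22 beside 0.00). Of all genes, 23.2% were higher and 19.1% lower in that comparison, so the count of higher genes was near the general share. Against EM organoids they held 3 higher and 0 lower (median 0.65 beside -0.13, with 5.73% of all genes higher). These were the integrin Itga6 at 63.9 ± 2.29 against 8.03 ± 2.41 TPM (adjusted p = 0.00494), the desmocollin Dsc2 (log2 fold change 1.63, adjusted p = 0.00443) and the plakin Plec (1.13, adjusted p = 0.000538).

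Of 7 other intermediate filament genes tested, 3 (Vim, Des and Synm) were lower in homeostatic DCs than in PDGFRα+SCA1+ cells and 0 higher, beside 9.85% of all genes lower. Vim, the filament of mesenchymal cells, was at 7.40 ± 2.86 in homeostatic DCs and 1075 ± 71.4 in PDGFRα+SCA1+ cells, and Des at 0.364 ± 0.286 and 209 ± 36.3. Lmna, Lmnb1, Lmnb2 and Nes did not pass (adjusted p = 0.412, 0.0679, 0.763 and 0.204). In EM organoids Vim was at 2.21 ± 2.23 TPM against 16.2 ± 0.924 in day 0 DCs (log2 fold change -2.62, adjusted p = 0.00061), and 4 of 8 were lower and 0 higher, beside 17.2% of all genes lower. The nuclear lamina gene Lmna and Nes were the 2 of 8 that co-culture organoids held above EM organoids (adjusted p = 0.00278 and 0.00456), beside 5.73% of all genes higher.

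Keratin levels in Msc were far lower after culture. Krt8 fell from 361 and 1067 TPM at day 0 to 4.91 and 1.13 TPM in Msc grown alone (log2 fold change -7.45 ± 0.56, adjusted p = 7.97e-06). Krt18 fell from 474 and 1283 to 12.8 and 2.33 TPM (log2 fold change -6.85 ± 0.70, adjusted p = 5.19e-05). Krt19 stood at 6.04 and 0 TPM after culture, and Krt17 and Krt23 had no read in either library, at least 52.7-fold and 151-fold lower by the floor. These 5 members were lower, against 17.5% of all genes, and the median log2 fold change was -4.11 beside 0.19 over all genes. The ductal list went the same way, with 7 of 8 lower and a sum of 208 to 236 TPM after culture against 1143 to 2454 at day 0. The hepatocyte list had 6 of 6 lower, from 16468 to 21218 TPM down to 6.11 to 14.1 TPM (median log2 fold change -9.21), and the erythroid list 3 of 3. The Krt17 call was lost without day 0 Msc library 2 (adjusted p = 0.0701) and without either library of Msc grown alone (0.0587 and 0.0577).

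By limma, 0 of the 8 passed the threshold between Msc grown below organoids and Msc grown alone, and 0 had an unadjusted p under 0.05, where 0.127% of all genes were called. In these co-cultured Msc, Krt19 was at 2.81 and 2.91 TPM, Krt18 at 5.98 and 1.19, Krt80 at 1.25 and 2.19 and Krt20 at 1.48 and 0.288. The 8 members took 0.00112% ± 0.000541 of these libraries.

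Culture in EM and culture of Msc alone were also set against each other, as the change of DCs minus the change of Msc. The difference was 4.71 ± 0.79 on the log2 scale for Krt8 (adjusted p = 0.00242), 4.73 ± 0.99 for Krt18 (adjusted p = 0.00726) and 5.02 ± 0.97 for Krt19 (adjusted p = 0.00504). These 3 of 8 were higher, that is, less reduced in DCs, beside 14.5% of all genes. All 8 ductal markers differed in the same direction. Of the hepatocyte markers 4 of 6 did so, with a median of 7.41 beside 3.60 for the ductal list. The ductal and hepatocyte markers of day 0 Msc thus moved with this result, and their part in it was not tested.

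Among 15585 genes measured in both experiments, those that tracked each keratin best were listed by the smaller of the 2 Pearson correlations of log2(value + 1) over the 12 homeostasis and the 12 transwell libraries. These correlations share libraries and mostly contrast ductal with stromal cells, so they are descriptions. Krt8 and Krt18 correlated at 0.988 and 0.998 with each other. Outside the members, both were best tracked by E-cadherin Cdh1 (smaller r 0.987 for each), followed by the claudins Cldn4 and Cldn7 for Krt8 and by Tm4sf4 and Cldn4 for Krt18. Krt7 was tracked by Slc44a4, Wnt7b and Onecut2 (0.976 to 0.987) and Krt19 by Igsf5, Cldn3 and Cd24a (0.95 to 0.968). Krt17 was tracked by the chloride channel Cftr, Rhov and Cxcl16 (0.958 to 0.982), and Krt23 by the glucose transporter Slc5a1, Dcdc2a and Bche (0.943 to 0.952). Krt20 was tracked by Anxa10, Fgfbp1 and Fcgbp (0.915 to 0.978). Krt80 had the weakest best match (Efhd2, 0.898). Within the members, Krt20 and Krt17 correlated at 0.954 in homeostasis and at 0.163 in the transwell experiment, the widest gap between the 2 experiments of any pair.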

How the data were processed

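RNA of sorted or cultured mouse cells was amplified by Smart-seq2, tagmented with NexteraXT and sequenced as single 50-base reads. Per the methods, the authors aligned with STAR 2.5.0a to GRCm38, filtered with SAMtools and counted with featureCounts. The transwell values were deposited by the authors as RPKM, scaled here to TPM (each library to the same sum). The homeostasis values were deposited by the authors as TPM, but library totals had been applied in rotation over rows, so they are used as a signal, called deposited value, and were returned to TPM where genes are compared. The deposited columns of group means (4) were not used, and 26 symbols of the transwell table had turned into dates.

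The test was limma 3.58.1 (R 4.3.3) on log2(value + 1) with a mean-variance trend, over genes at 1 or more in at least 3 (homeostasis) or 2 (transwell) libraries, all groups in 1 fit, with Benjamini-Hochberg adjustment over all genes tested and a threshold of 0.05. The members pass this filter partly through the groups where they are high. In homeostasis Krt20 passes it through DCs alone, and Krt7 and Krt17 pass it only with the DC libraries. The fit was tested on simulated data. Whole reads were recovered from low values (92.9% and 93.0% whole within 0.02, up to 20 reads). In homeostasis each mouse gave all 4 fractions, so replicates pair by animal, and residual correlations within a mouse were 0.0102 to 0.0973. Transwell replicates share only a number across groups. They are described as independent biological replicates, with cells taken from littermates. All 8 members were named, with the 3 genes most like each. The members and lists were chosen with earlier results of these data known.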

Additional observations from a re-analysis of the deposited data

Results flagged for a closer look

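A difference between cell types in the change from day 0 to culture flagged 3 keratins. Medium and culture format differed between the cell types too, so their effects cannot be told apart from that of cell type. The culture change of DCs in EM minus that of Msc grown alone was 4.706 on the log2 scale for Krt8, 4.73 for Krt18 and 5.022 for Krt19, each past the threshold of the interaction test (limma, n = 2 per group). Both cell types had lower Krt8 and Krt18 after culture. Groups of 2 and 3 libraries were too small to look for single outlying samples.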

How the results depend on the processing

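Of 1081 refits of the 54 called gene results, 1040 kept the call, 41 lost it and 0 reversed; of 726 refits of the 36 results not called, 666 stayed so, 41 gained a call and 19 reversed. Counts that moved by over 1.5 times were as follows. For PDGFRα-SCA1+ against PDGFRα+SCA1+ cells (2 called), a pseudocount of 0.1, no filter and a fit of these groups only each gave 1, the replicate block gave 3, and leaving out a library gave 0 to 3. For EM organoids against day 0 DCs (5), the pseudocount gave 3 and leaving out a library 3 to 6. For co-culture against EM organoids (3), the pseudocount gave 1, a minimum of 5 gave 5, RPKM gave 6, the 3 ductal groups alone, an alternative chosen after seeing the data, gave 7, and leaving out a library gave 1 to 6. For Msc alone against day 0 (5), these groups only gave 3 and leaving out a library 4 to 7. For the interaction (3), RPKM gave 5 and leaving out a library 3 to 6. The replicate block changed no other call. Log2 fold changes that reversed, none of them called, were those of Krt80 (-0.19 with the pseudocount, -0.85 to 1.06 without 1 library) and Krt17 (-0.21 to 1.55) in PDGFRα-SCA1+ against PDGFRα+SCA1+ cells, Krt19 between the PDGFRα+ fractions (-0.46 with quantile scaling, -0.51 to 1.44), Krt23 in the interaction (2.74 with the pseudocount, -1.48 to 0.49), Krt20 in EM organoids (-0.57 to 1.60) and in DCs against Msc (-0.017 to 1.22), Krt7 in Msc alone (-1.39 to 0.67), and Krt8 (-1.21 to 0.27), Krt18 (-1.83 to 0.23) and Krt19 (-0.87 to 1.95) in co-cultured Msc. The cause was not tested. Quantile scaling moved the share of higher calls from 65.4% to 53.9% in DCs against PDGFRα+SCA1- cells, from 74.0% to 57.4% between the PDGFRα+ fractions and from 58.1% to 45.7% in PDGFRα-SCA1+ against PDGFRα+SCA1+ cells. Groups of 2 libraries limit the transwell values most.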
